A study of Homo sapiens with 4 samples.

Results

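Integrins and laminins form the adhesion machinery through which a cell holds on to its basement membrane. Integrins are heterodimers of an alpha and a beta chain in the plasma membrane, and the alpha chain largely sets which matrix protein is bound, such as collagen, laminin, or proteins with an RGD motif like fibronectin and vitronectin. Laminins are the trimers of an alpha, a beta and a gamma chain that build the basement membrane, and they are ligands of several integrins. In neuroblastoma, flat substrate-adherent cells and small neuroblastic cells differ in how firmly they attach, and SK-N-SH cultures hold both kinds.

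RNA-seq counts of these genes were compared between SK-N-SH cells transduced with a recombinant lentivirus carrying the lncRNA *RP5-998N21.4* (*RP5-998N21.4* OE, 2 libraries) and the same line given the empty lentivirus (vector control, 2 libraries). The insert was driven by the EF1a promoter, both groups were SK-N-SH grown in DMEM with serum, and the control cells thus carried the vector too. The comparison asks which genes changed with overexpression of the lncRNA. Neither a clonal origin nor separate cultures are given for the libraries, so p-values measure only the spread between these libraries, which may be technical.

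The genes were chosen by symbol, as ITGA, ITGB, LAMA, LAMB and LAMC genes, and their transcript counts were summed per gene identifier. This gave 39 of the 57820 gene identifiers in the table, 27 integrin and 12 laminin identifiers, with 38 symbols because *ITGB3* has 2 identifiers. Total counts were from 23785164 to 28307591 per library, and the members held between 0.616% and 0.639% of them. Of the 39, 32 passed the filter on low counts and were tested, 21 integrins and 11 laminins. The other 7 had at most 8 counts in any library and are *ITGA2B* (platelet alpha chain), *ITGA8* (an RGD-binding alpha chain), *ITGAL*, *ITGAM* and *ITGAX* (the alpha chains of leukocytes), *LAMC3*, and the second *ITGB3* identifier (ENSG00000259753.1), which was at 0 in all 4 libraries. The overexpressed gene had 32 and 33 counts in control cells against 2407 and 2808 with OE. Of the neuroblastoma markers looked up, *HAND2*, a transcription factor of the sympathetic lineage, was at 221.6 and 238.7 CPM (counts scaled to library size, here with TMM factors) in the vector control. With OE it was higher, at 333.5 and 302.2 CPM. *TH*, the enzyme of catecholamine synthesis, was at 0 in all 4 libraries.

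The integrins with the clearest difference were lower in the OE libraries. *ITGA6*, *ITGB3* and *ITGB5* stood at 47.2%, 50.0% and 66.8% of their vector control level, and *ITGA11* stood at 126%. At the thresholds of the study (|log2 fold change| > 0.5 with an adjusted p below 0.01), no integrin or laminin gene was a DEG in the quasi-likelihood test of edgeR, with Benjamini-Hochberg (BH) adjustment over 20528 tested genes, and neither was any other gene (0%). With the adjusted p allowed up to 0.05, 0 of the 32 members were called, beside 0.594% of all tested genes. At an unadjusted p under 0.05, 6 of the 32 members (18.8%) were lower and 1 (3.12%) was higher, beside 10.7% of all tested genes lower and 10.1% higher. The Wald test of DESeq2, the tool of the study's methods, run over the same 20528 genes, called 3 of the 32 lower (*ITGA6*, *ITGB3* and *ITGB5*) and 0 higher, beside 4.42% and 4.35% of all tested genes. Both OE libraries lay below both vector control libraries in 13 of the 32 (40.6%) and above them in 3 (9.38%), beside 27.6% and 27.8% of all tested genes. The median log2 fold change was -0.24 over the 21 integrins and -0.07 over the 11 laminins, beside 0.01 over all tested genes. The laminin median depended on single libraries, at -0.48 without OE replicate 1, -0.34 when vector control replicate 2 was dropped and 0.0156 when vector control replicate 1 was. For a single gene, 0.333 is the smallest two-sided p that exact permutation of 2 and 2 libraries allows.

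**Figure D1:**
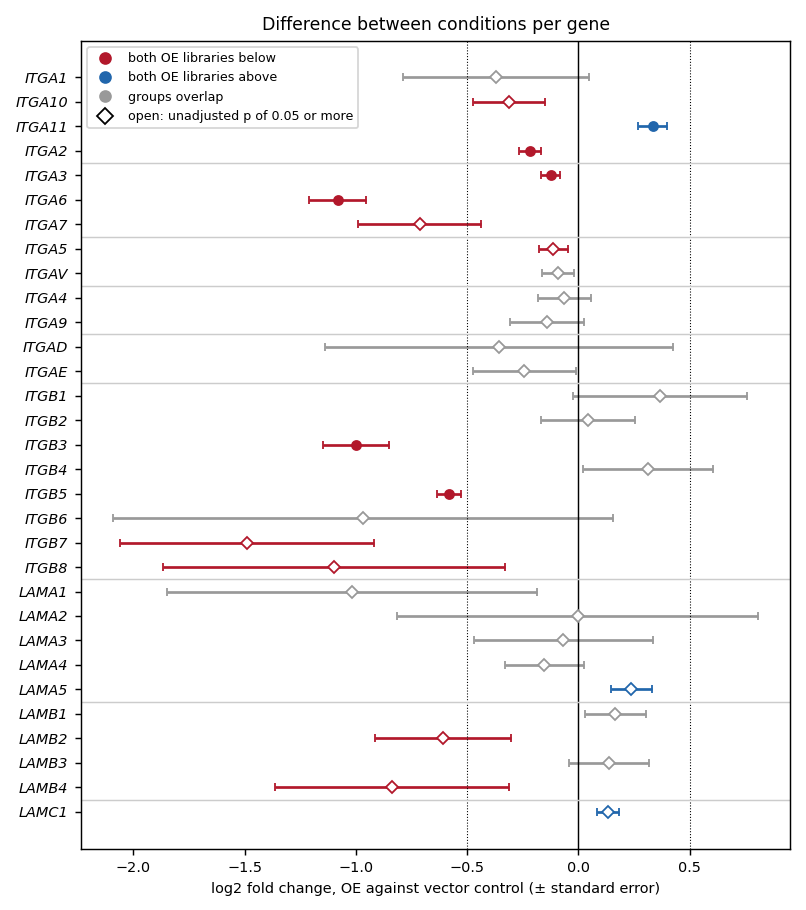
Log2 fold change of 31 of the tested integrin and laminin genes, OE against vector control, with the standard error as horizontal bars and genes grouped by chain; dotted lines mark the study's fold-change threshold. Filled circles are genes with an unadjusted edgeR p under 0.05 (*ITGA11*, *ITGA2*, *ITGA3*, *ITGA6*, *ITGB3* and *ITGB5*), of which only *ITGA11* lies to the right of 0, and red marks genes whose OE libraries both lay below the vector control.

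Among the beta chains, *ITGB5* (ENSG00000082781.7), which pairs with the alpha V chain to bind vitronectin, had the smallest p of all members. The gene is at chr3:124480795-124620265, minus strand (hg19). Counts were 8525 and 8708 in control cells against 6167 and 7129 with OE. After scaling, the OE libraries were nearly equal at 245.8 and 246.5 CPM, against 366 and 371 CPM in control cells, and the groups did not overlap. The log2 fold change was -0.58 (SE 0.0525, edgeR BH-adjusted p = 0.0615) and stayed from -0.60 to -0.58 when single libraries were dropped. Nearly all counts of *ITGB5* were on the transcript ENST00000296181.4, a protein-coding one, in every library.

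*ITGB3* (ENSG00000259207.3), the other beta chain of vitronectin receptors and the partner of the platelet alpha chain, was also lower. The gene is at chr17:45331193-45391109, plus strand. Counts were 1012 and 833 in control cells against 515 and 548 with OE. Every one of these was assigned to ENST00000559488.1. Its scaled level was 39.5 ± 5.66 CPM in control cells against 19.7 ± 1.12 CPM with OE (SD, n = 2 each), with no overlap. The log2 fold change was -0.999 (SE 0.148, edgeR BH-adjusted p = 0.0893), between -1.14 and -0.85 with each library left out. The annotation places exons of 1 other gene on the same strand over those of *ITGB3*, the second identifier above, which took no counts.

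*ITGA6* (ENSG00000091409.10), an alpha chain of laminin receptors, was the other member with a clear difference. The gene is at chr2:173292082-173371187, plus strand. Counts were 5909 and 6208 in control cells against 3386 and 3176 with OE. In CPM these were 254 and 264 against 135 and 110, and every OE value was below every control value. The log2 fold change was -1.08 (SE 0.127, edgeR BH-adjusted p = 0.0713), between -1.24 and -0.94 with each library left out. Exons of 3 genes on the other strand overlap those of *ITGA6*, and whether the counting used strand is not given in the sources used here.

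The transcripts that held the *ITGA6* counts differed between the OE libraries. ENST00000375221.2 held 85.1% and 81.9% of the counts in the vector control and 75.0% in OE replicate 1, and it held 0 counts in OE replicate 2. ENST00000264107.7 held 95.7% of the counts in OE replicate 2 and from 14.8% to 18.7% in the other 3 libraries. The lower level of *ITGA6* was thus seen in both OE libraries, while the move between transcripts was seen in 1 library of the 4. Taken alone, ENST00000375221.2 gave a log2 fold change of -2.10, a value set by its 0 counts in OE replicate 2.

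**Figure D2:**
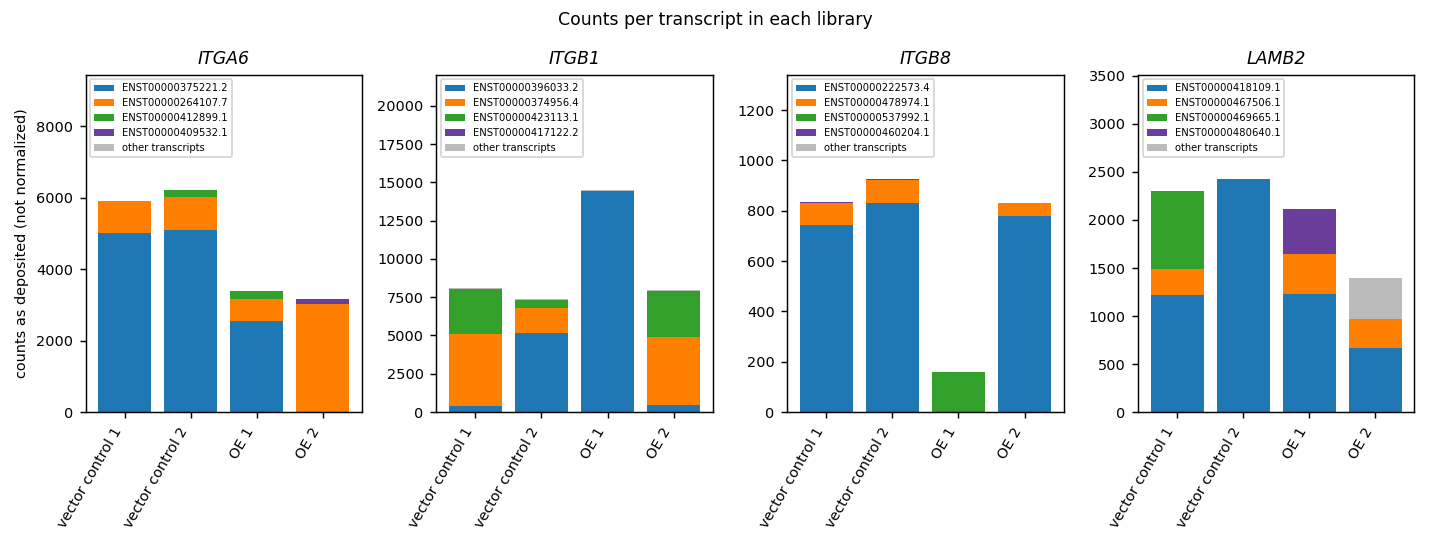
Counts per transcript of *ITGA6*, *ITGB1*, *ITGB8* and *LAMB2* as stacked bars, as deposited and without scaling, in each of the 4 libraries; colours are the 4 transcripts with the most counts per gene and grey the rest. The *ITGA6* bars of both OE libraries are lower than both vector control bars, while in *ITGB1* and *ITGB8* OE replicate 1 stands apart from the other 3 libraries with nearly all or all of its counts on a transcript that held 70.1% at most in any other library.

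The bases just before the start site are shown for the members with an unadjusted edgeR p under 0.01 except *ITGB3*, which had no RefSeq window. Of those shown, 2 were lower and 1 was higher. RefSeq windows were matched for 26 of the 38 symbols. Each line gives the 110 bases upstream of the RefSeq start site nearest to the start of the annotated transcript with the most counts, placed in GRCh37 by exact match, from 5′ to 3′ on the gene's strand. Capitals mark GGGCGG on either strand, the GC box bound by Sp1-type factors.
ITGB5, chr3:124606213-124606322, minus strand: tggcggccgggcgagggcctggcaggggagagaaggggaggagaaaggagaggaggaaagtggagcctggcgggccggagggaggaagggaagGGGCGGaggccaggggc
ITGA6, chr2:173292204-173292313, plus strand: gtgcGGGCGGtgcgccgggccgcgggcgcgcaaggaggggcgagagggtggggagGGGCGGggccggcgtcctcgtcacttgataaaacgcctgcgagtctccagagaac
ITGA11, chr15:68724503-68724612, minus strand: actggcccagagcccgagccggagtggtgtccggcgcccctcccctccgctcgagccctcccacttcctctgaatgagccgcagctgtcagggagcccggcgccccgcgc

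The GC box letters were found 1 time before *ITGB5*, 2 times before *ITGA6* and 0 times before *ITGA11*, and 32.7% of the 35116 RefSeq windows of the same length hold them. All 3 windows are rich in G and C, at 72.7%, 73.6% and 74.5%. The AP-1 motif TGANTCA, the CRE motif TGACGTCA and the TATA motif TATAAA, searched on both strands, were not in any of the 3 windows and are in 3.05%, 1.24% and 5.31% of all windows. The windows of *ITGB5* and *ITGA6* lie within the annotated span of these genes, and that of *ITGA11* lies upstream of the gene. The *ITGA6* start site lies 82 bases upstream of the annotated start of ENST00000264107.7. These matches describe letters and do not show binding.

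Of the alpha chains that bind collagen, *ITGA11* was higher and *ITGA2* was lower in the OE libraries. *ITGA11* (ENSG00000137809.12, chromosome 15, minus strand, 68588870 to 68724502) is a chain typical of fibroblast-like cells. Counts were 4808 and 4607 in control cells against 6259 and 7460 with OE, or 201 ± 7.36 CPM against 254 ± 5.99 CPM (SD, n = 2 each). Its log2 fold change was 0.33 (SE 0.0655, edgeR BH-adjusted p = 0.119), the only member with an unadjusted p under 0.05 in this direction. *ITGA2* had 25472 and 25430 counts in control cells against 22715 and 27935 with OE. Scaled to library size it was at 1094 and 1082 CPM against 905 and 966 CPM, with a log2 fold change of -0.22 (SE 0.0503, edgeR BH-adjusted p = 0.146). The groups of both genes were apart, but both changes were smaller than the study's fold-change threshold.

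*ITGA1* and *ITGA10*, the other collagen-binding chains, had larger errors for the size of their difference. *ITGA1* was at 178 and 116 CPM in the vector control and at 77.6 and 150 CPM in the OE libraries, so that the libraries of the conditions overlapped. *ITGA10* was at 14.1 and 16.1 CPM against 11.1 and 13.2 CPM, with the groups apart (log2 fold change -0.31 ± 0.160 SE, edgeR BH-adjusted p = 0.366). Of the 4 collagen-binding chains, 1 was higher and 1 was lower at an unadjusted p under 0.05, beside 10.1% and 10.7% of all tested genes.

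The laminin-binding chains *ITGA3*, *ITGA6* and *ITGA7* all had both OE libraries below both vector control libraries, by very different amounts. *ITGA3*, the laminin-binding chain with the highest level here, had 33461 and 35468 counts in control cells against 33833 and 39166 with OE. In CPM it was at 1437 and 1509 against 1348 and 1354, a log2 fold change of -0.12 (SE 0.0423, edgeR BH-adjusted p = 0.230). *ITGA7*, best known from muscle, was at 7.21 and 9.79 CPM against 6.06 and 4.32 CPM (log2 fold change -0.71 ± 0.276 SE, edgeR BH-adjusted p = 0.269). The values of *ITGA7* rest on 125 to 230 counts per library, and 3 genes on the other strand share its exons.

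The tested RGD-binding alpha chains were *ITGAV* and *ITGA5*, both without an unadjusted p under 0.05. *ITGAV*, the alpha chain shared by *ITGB3*, *ITGB5* and *ITGB8*, had 15333 and 13912 counts in control cells against 14503 and 17230 with OE, or 625 ± 47.0 CPM against 587 ± 12.5 CPM (SD, n = 2 each). Its log2 fold change of -0.09 (SE 0.0720, edgeR BH-adjusted p = 0.536) was within the spread between replicates, and its libraries overlapped while those of its partners *ITGB3* and *ITGB5* did not. *ITGA5*, the fibronectin receptor chain, was at 258 and 276 CPM against 246 and 247 CPM, with the groups apart and a log2 fold change of -0.11 (SE 0.0661, edgeR BH-adjusted p = 0.414). *ITGA4* and *ITGA9*, chains that bind fibronectin splice forms and other ligands, had log2 fold changes of -0.06 and -0.14 and overlapping libraries. With each library left out, that of *ITGA4* ranged from -0.11 to -0.02 and that of *ITGA9* from -0.31 to 0.01.

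**Figure D3:**
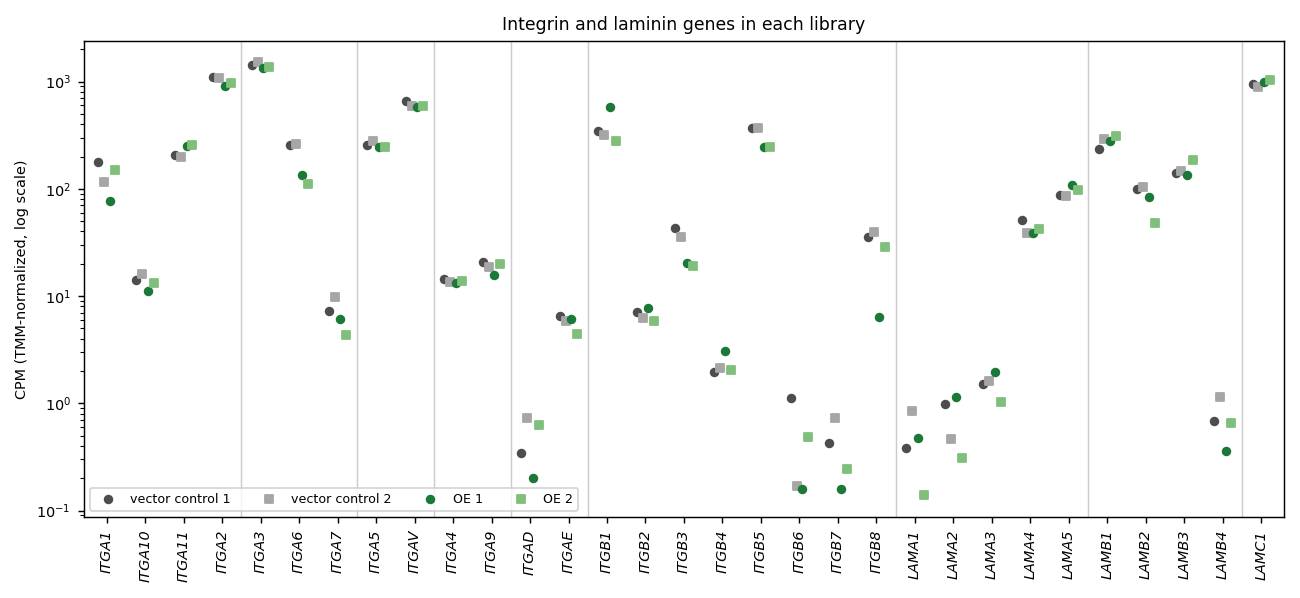
TMM-normalized CPM of 31 of the tested genes on a log axis, with 1 point per library (grey, vector control; green, OE; circles, replicate 1; squares, replicate 2) and vertical lines between chain classes. The pairs of *ITGB5*, *ITGB3* and *ITGA6* points separate by condition, whereas *ITGB8* and *ITGB1* have 1 OE library apart from the other 3 points.

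In *ITGB1* and *ITGB8*, the OE libraries differed from each other more than the conditions did. *ITGB1*, the beta chain that most alpha chains pair with, had 8090 and 7384 counts in control cells against 14478 and 7989 with OE. In CPM these were 347 and 314 against 577 and 276, and the log2 fold change of 0.37 (SE 0.391, edgeR BH-adjusted p = 0.651) became -0.26 without OE replicate 1. In that library 99.5% of the *ITGB1* counts were on ENST00000396033.2, which held 4.49% and 70.1% in the vector control and 5.58% in OE replicate 2. In vector control replicate 1 and OE replicate 2, most counts were on ENST00000374956.4 (58.7% and 55.4%) and ENST00000423113.1 (36.2% and 38.1%). ENST00000396033.2 and ENST00000423113.1 have similar lengths in the annotation, 3784 and 3816 nt.

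*ITGB8*, the beta chain that pairs with the alpha V chain and is known for activating latent TGF-beta, had 836 and 925 counts in the vector control, 161 in OE replicate 1 and 831 in OE replicate 2. Scaled values were 35.9 and 39.4 CPM against 6.42 and 28.7 CPM, a 4.48-fold difference between the OE libraries. The log2 fold change of -1.10 (SE 0.768, edgeR BH-adjusted p = 0.488) was -0.39 without OE replicate 1 and -2.55 without OE replicate 2. All 161 counts of OE replicate 1 were on ENST00000537992.1, a transcript at 0 in the other 3 libraries. There, ENST00000222573.4 held between 89.0% and 93.7% of the counts. The low level of *ITGB8* and the change of transcript were thus seen in the same library.

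Of the remaining beta chains, *ITGB2*, the leukocyte beta chain, had between 146 and 195 counts per library. Its log2 fold change was 0.04, from -0.17 to 0.23 with each library left out. *ITGB4*, the hemidesmosome partner of *ITGA6*, had 46 to 77 counts per library and overlapping groups. Its log2 fold change was 0.31 (SE 0.291, edgeR BH-adjusted p = 0.602), from -0.01 to 0.58 with each library left out. *ITGB6* and *ITGB7* had at most 26 counts in any library, as had *ITGAD*. *ITGAE*, an alpha chain of mucosal T cells, had 127 to 153 counts per library and overlapping groups. Its log2 fold change was -0.24, from -0.50 to -0.02 with each library left out. Of 7 leukocyte markers, 1 was tested and their summed counts were 19 to 43 per library, with *CD3E* and *LYZ* at 0 in all libraries and *PTPRC* at 0 in 3 and at 4 counts in 1.

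Of the 11 tested laminin genes, 0 were higher and 1 (9.09%) was lower at an unadjusted p under 0.05, beside 10.1% and 10.7% of all tested genes. Both OE libraries lay above the vector control in 2 laminin genes (18.2%) and below it in 3 (27.3%), beside 27.8% and 27.6% of all tested genes, so these shares were at or under the background. *LAMC1*, the gamma chain of most laminin trimers, had 22004 and 21002 counts in control cells against 24934 and 29631 with OE. It was at 919 ± 36.2 CPM against 1009 ± 21.7 CPM (SD, n = 2 each), with the OE libraries above and a log2 fold change of 0.13 (SE 0.0499, edgeR BH-adjusted p = 0.257). *LAMB3*, a beta chain of epithelial laminins, was at 144 ± 3.58 CPM against 159 ± 35.4 CPM (SD, n = 2 each), with overlapping groups. *LAMA3*, an epithelial alpha chain, had at most 49 counts per library and a log2 fold change of -0.07.

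Among the laminin beta chains, *LAMB1* was at 236 and 292 CPM in the vector control and 279 and 313 CPM in the OE libraries, with overlap and a log2 fold change of 0.17 (SE 0.137, edgeR BH-adjusted p = 0.556) that was 0.0156 and 0.32 when vector control replicates 1 and 2 were dropped and 0.08 when OE replicate 2 was. *LAMB2*, a chain of neuromuscular and vascular basement membranes, was at 99.0 and 103 CPM against 84.3 and 48.1 CPM. Both OE libraries were below, but they differed from each other 1.75-fold, and the log2 fold change of -0.61 (SE 0.306, edgeR BH-adjusted p = 0.357) ranged from -1.07 to -0.26 with each library left out. Of the *LAMB2* counts, 53.0% and 100% in control cells and 58.0% and 48.1% with OE were on the protein-coding ENST00000418109.1, and the rest were mostly on short retained-intron transcripts that differed by library, such as ENST00000469665.1 whose 815 counts were all from vector control replicate 1. *LAMB4* had at most 27 counts in any library.

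The laminin alpha chains were led by *LAMA5*, the chain of most adult basement membranes, which had 2044 and 2020 counts in control cells against 2703 and 2810 with OE. It was at 86.9 ± 1.28 CPM against 102 ± 7.48 CPM (SD, n = 2 each), with the OE libraries above and a log2 fold change of 0.24 (SE 0.0924, edgeR BH-adjusted p = 0.270). *LAMA4*, found in vessels and nerve, was at 51.4 and 38.9 CPM against 38.5 and 42.6 CPM, with overlap. *LAMA1* and *LAMA2* had at most 29 counts in any library. *LAMA5*, *LAMC1* and *ITGA11* were the 3 members with both OE libraries above the vector control.

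Levels between chains were compared per length, as CPM per kb summed over transcripts, each count divided by the length of its own transcript. *ITGA3* led with 327 CPM per kb on average over the 4 libraries (322 to 337), followed by *ITGA2* with 129 (118 to 136) and *LAMC1* with 122 (110 to 132), whose ranges overlap. *ITGB1* at 102 (76.7 to 156), *LAMB1* at 94.4 (71.8 to 105) and *ITGAV* at 86.1 (82.2 to 91.7) came next with overlapping ranges. Then came *ITGB5* at 68.9 (56.5 to 81.4) and *ITGA5* at 52.7 (51.4 to 55.5), which overlap neither each other nor *ITGAV*. The range of *ITGB5* overlaps those of *ITGB1* and *LAMB1*, and in vector control replicate 1 *ITGB5* (80.9) was above *LAMB1* (71.8). *LAMB2* at 47.7 (17.8 to 67.3), *LAMB3* at 38.0, *ITGA6* at 37.0 and *LAMA5* at 30.2 CPM per kb followed by their means, although *LAMB2* was above *ITGA5* in vector control replicate 1 and OE replicate 1. *ITGB3* and *ITGB8* averaged 4.94 and 4.29 CPM per kb, less than *ITGB5* in every library. *LAMA2*, *LAMA1* and *ITGAD* were under 0.25 CPM per kb in every library.

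The scale depends on which transcripts the counts were placed on. With the union of all exons as length, *ITGA3* kept the highest value at 144 CPM per kb. Its lead was smaller there, with *ITGA2* at 128 and *LAMC1* at 114. *LAMB1* went from 94.4 to 15.1 and *ITGB1* from 102 to 26.1. Most counts of *ITGA3* (85.5% to 86.9%) and *ITGA5* (88.8% to 91.2%) were on transcripts that the annotation lists as retained-intron forms, ENST00000505306.1 and ENST00000552564.1, in all 4 libraries alike.

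**Figure D4:**
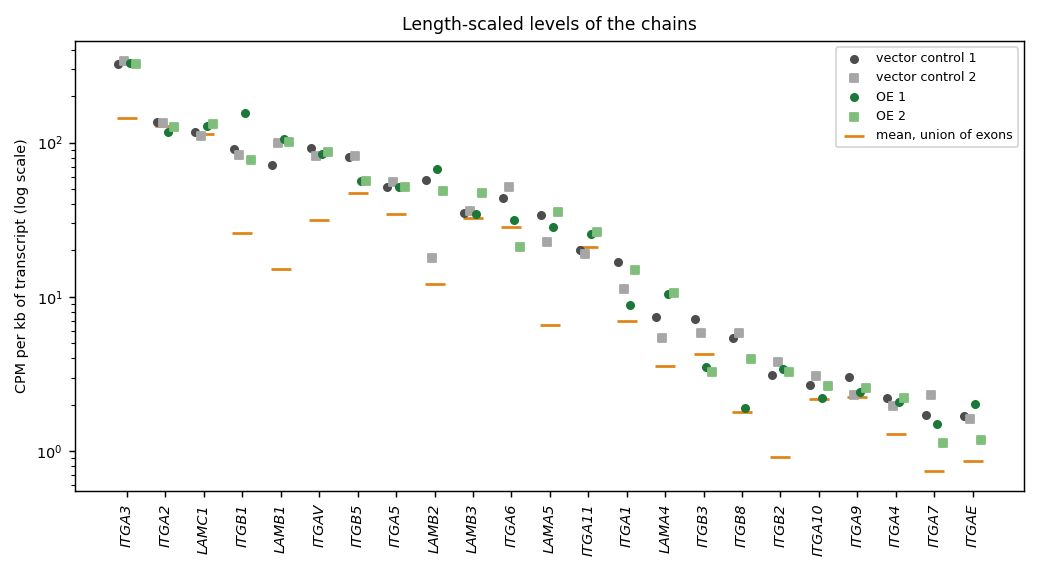
CPM per kb of transcript on a log axis for 23 member genes with an average of at least 0.8, with 1 point per library (grey, vector control; green, OE) and an orange dash for the mean when the union of exons is used as length. *ITGA3* is highest on both scales, and the dashes of *LAMB1*, *LAMA5* and *ITGB1* lie far under their points.

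Lists of partner genes were looked at beside the integrins and laminins. Of 20 focal adhesion adaptors, all tested, 6 were lower and 0 were higher at an unadjusted p under 0.05, beside 10.7% and 10.1% of all tested genes. Their median log2 fold change was -0.24, beside 0.01 over all tested genes. *ZYX*, zyxin, was at 1017 and 1140 CPM in the vector control and 589 and 578 CPM in the OE libraries (log2 fold change -0.89 ± 0.0729 SE, edgeR BH-adjusted p = 0.0533). *PXN*, paxillin, was at 385 and 381 CPM against 290 and 292 CPM (log2 fold change -0.39, adjusted p = 0.0780), and the adaptors *TNS3* and *PTK2*, the focal adhesion kinase, had log2 fold changes of -0.37 and -0.34. The groups were apart for all of them.

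Of 16 tested laminin receptors and partners outside the integrins, 2 were lower and 0 were higher at that p, with a median of -0.15, and the share that was lower was near the 10.7% of all tested genes. *DAG1*, dystroglycan, which binds laminin from outside the integrin family, was at 587 and 570 CPM against 334 and 361 CPM (log2 fold change -0.73 ± 0.0638 SE, edgeR BH-adjusted p = 0.0590). *SDC1*, a syndecan, had a log2 fold change of -0.21. Of 16 tested matrix ligands, 2 were lower and 1 was higher, with a median of -0.09, beside 10.7% lower, 10.1% higher and a median of 0.01 over all tested genes, so that the counts were near the background. *THBS1*, thrombospondin, was at 135 and 129 CPM against 68.3 and 78.3 CPM (log2 fold change -0.85, adjusted p = 0.0768 from edgeR's test), *SPARC* had a log2 fold change of -0.41, and *SPP1*, osteopontin, was higher on at most 16 counts per library.

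**Figure D5:**
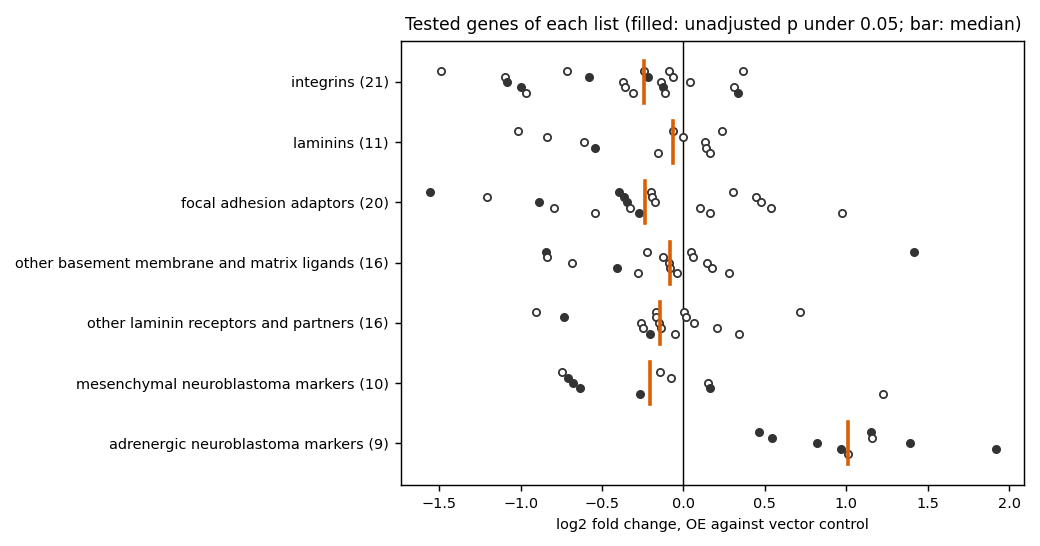
Log2 fold change, OE against vector control, of each tested gene of the integrins, the laminins, 3 lists of adhesion partners and 2 lists of neuroblastoma markers, with the number tested in brackets; filled points have an unadjusted edgeR p under 0.05 and orange bars are medians. The medians of the integrins and focal adhesion adaptors lie at -0.24 each, while all 9 adrenergic markers lie to the right of 0.

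Markers of the neuroblastoma cell states were looked at in the same libraries. Of 9 tested adrenergic markers, 7 were higher and 0 were lower in the OE libraries at an unadjusted p under 0.05, beside 10.1% and 10.7% of all tested genes. Their median log2 fold change was 1.01, with summed levels of 520 and 586 CPM in the vector control and 974 and 932 CPM in the OE libraries. *CHGA* (chromogranin A) had a log2 fold change of 1.39 (edgeR BH-adjusted p = 0.0449), and *DBH*, the enzyme that makes noradrenaline, of 0.82. Of 10 mesenchymal markers, 4 were lower and 1 was higher, beside the same 10.7% and 10.1%, with a median of -0.21 and summed levels of 2789 and 2621 CPM against 3161 and 2237 CPM. The log2 fold change was -0.71 for *CD44*, -0.68 for *SNAI2*, -0.64 for *PRRX1* and -0.27 for *YAP1*, and 0.16 for *NOTCH2*. *VIM*, vimentin, had the largest absolute log2 fold change of that list at 1.22 (SE 0.628, edgeR BH-adjusted p = 0.367), with 348 and 350 CPM in control cells against 1254 and 376 CPM with OE, so that OE replicate 1 stood apart. In bulk libraries, fewer cells of a kind and less RNA per cell cannot be told apart. Of the cell types with laminin or integrin chains of their own, endothelial markers had 0 to 4 counts per library in all, platelet and erythroid markers 60 to 120, and Schwann and glial markers 98 to 180. Of 6 epithelial markers, *KRT18* averaged 56.6 CPM with overlapping groups and 4 were at 0. The remaining marker had at most 30 counts in any library, with both OE libraries below the vector control. The part of these markers in the lower *ITGA6*, *ITGB3* and *ITGB5* was not tested.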

How the data were processed

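RNA-seq libraries of transduced SK-N-SH cells were compared, 2 of OE and 2 of vector control, grouped by their treatment label (control titles read WT). The authors used Trimmomatic for trimming and Bowtie2 against hg19, and the deposited values are raw counts of each transcript as whole numbers. Bowtie2 does not split reads across introns. The submitters' processing notes also name Picard 2.21.6 and StringTie 2.1.6. The counting tool, annotation release and strand setting are not given in the sources used here.

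Counts were summed per gene, filtered with filterByExpr, normalized by TMM (factors 0.9763 to 1.023) and tested with edgeR 4.0.16 (quasi-likelihood, R 4.3.3). DESeq2 1.42.0 and limma 3.58.1 served as alternatives, and the fit was tested on simulated data. CPM used TMM-scaled library sizes, and CPM per kb the raw totals. The standard error is the absolute log2 fold change over the square root of the F statistic. Positions and lengths came from GENCODE lifted to GRCh37. It lists 379 of the 407 member transcripts (96.2% of counts), 174 in the same version. Unlisted transcripts took the canonical length of their gene.

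Members and lists were chosen with earlier results of these data known. Values per library are given for members with an unadjusted p under 0.05, those with separate groups and an absolute log2 fold change above 0.5 at 1 CPM or more, those with replicates more than 4-fold apart at a mean of 1 CPM or more, the 5 integrin alpha, 3 integrin beta and 5 laminin genes with the highest length-scaled level, and a few others for context, chosen after their values were seen. At most 4 genes per list were named by smallest p. A few genes of the lists, 1 member among them, are counted but not reported here by name.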

Additional observations from a re-analysis of the deposited data

How the results depend on the processing

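No member was called at the study's thresholds in edgeR's test with RLE or upper-quartile normalization, other filters on low counts, 1 transcript per gene, a looser adjusted p of 0.05, limma-voom, or any library left out, while DESeq2 called 3, both on the same genes and on genes with at least 10 counts in total. At an unadjusted p under 0.05, 1 member was higher, and 3 were with upper-quartile normalization, 3 with DESeq2 on either gene set, 2 with limma-voom, and 1 to 2 with each library left out. The number lower was 6, from 4 to 8 over all alternatives and from 4 to 5 with each library left out. The median log2 fold change lay between -0.31 and -0.17 for the integrins and between -0.48 and 0.0156 for the laminins with each library left out. Dropping OE replicate 1 gave the laminin median of -0.48, and dropping a vector control library gave 0.0156 (replicate 1) or -0.34 (replicate 2). Of the 17 members followed through every alternative, 15 kept their direction. With single libraries left out, the log2 fold change of *ITGB1* ranged from -0.26 (without OE replicate 1) to 0.80, and that of *LAMB3* from -0.11 (without OE replicate 2) to 0.35. With the union of exons as length, 11 of the 17 levels per kb moved by more than the SD over the 4 libraries of both conditions. All of these moved to lower values, because the union of exons is never shorter than a transcript of the gene. The adjusted p of *ITGB5* ranged from 4.184e-47 (DESeq2) to 0.2955 (replicate block), and that of *ITGA6* from 3.546e-14 (DESeq2) to 0.8344 (1 transcript per gene).

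The labels number the replicates 1 and 2 in both conditions without naming a shared batch. Deviations of libraries with the same number had a correlation of -0.016 over 17601 genes. A batch that affects few genes would hardly move this value, so whether the numbers pair the libraries is not known. With the replicate block, 0 members were called, and 1 was higher and 4 were lower at an unadjusted p under 0.05. *ITGB6* and *LAMA1*, which had few counts, had overlapping groups, and the CPM of these genes differed 2.20-fold to 6.56-fold between replicates.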
